A study of Arabidopsis thaliana with 12 samples.

Results

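AT2G36480 is a protein-coding gene of chromosome 2 of *Arabidopsis thaliana*, and 1 probe of the 3439 on the array was assigned by the platform annotation to it alone. The gene was chosen by its measured log2 difference and its limma call between recovery and control plants, as the named gene with the largest fall, so its difference between those groups is given here as a description, with no test. The recovery group held 6 samples of wild-type plants, ecotype Columbia 0, exposed to 1000 µE for 1 h and brought back to 80 µE, and the control group held 6 samples of wild-type Columbia 0 plants grown at 80 µE. The time back at 80 µE is 2 h by the titles and descriptions and 1 h by the source names, and the titles place the controls at 0 h, so an effect of the time of sampling cannot be told apart from one of light. The labels name no tissue, plant age, plant number or pool.

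Light beyond what photosynthesis can use leads to reactive oxygen and to damage of photosystem II in chloroplasts, and signals from the chloroplast then change the levels of many nuclear transcripts. On return to growth light, transcripts that rose or fell under stress move back at different speeds, set by new synthesis and by decay. AT2G36480 is a nuclear gene for which the reference gene table holds no symbol beyond the locus name. No role is given to it here. The table lists 2 transcripts for it, and the probe's signal is given for the gene as a whole.

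Of the 3439 probes, 692 were assigned to 1 gene, 870 to several and 1877 were unnamed here. Sample medians ran from 0.196 to 0.458 in arbitrary units and 4.97% to 11.1% of probes per sample were listed at 0. Consecutive numbers of a group (1+2, 3+4 and 5+6, called pairs here) resembled each other, with log2 correlations of 0.853 to 0.942 inside pairs, against 0.683 to 0.824 across pairs of the group. No label says whether a pair is 1 RNA read again, so a p-value rests on a spread that may be partly technical. Samples 3 and 4 stood apart from the others in their difference between recovery and control, so the values of AT2G36480 are given with and without them. Of 9 genes typical of green tissue, 4 had a probe of their own, and over the 12 samples the antenna gene LHB1B2 ranked between 17 and 32 of all probes, the photosystem I gene PSAN between 34 and 95, the phosphoribulokinase gene PRK between 153 and 400, and SBPASE, of the Calvin-Benson cycle, between 552 and 3020.

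The AT2G36480 probe was dimmer in recovery plants than in control plants. Its deposited intensity in recovery samples 1 to 6 was 0.271, 0.363, 0.554, 0.549, 0.422 and 0.309. In control samples 1 to 6 it was 3.15, 3.01, 1.19, 1.31, 4.67 and 3.89. Every recovery value lay below every control value, with recovery 3 and 4 the highest of the recovery samples and control 3 and 4 the lowest of the control samples. The mean intensity was 0.411 ± 0.120 in recovery and 2.87 ± 1.39 in control samples (SD, n = 6 each), a ratio of means of 6.98, control over recovery. On this deposited scale the highest value was 3.91 times the lowest in control samples and 2.05 times the lowest in recovery samples. That wider spread in control samples depended on the scale. After quantile normalisation the log2 SD was 0.85 in control and 0.90 in recovery samples. In RNA from whole samples, fewer cells that use the gene and less transcript per cell cannot be told apart.

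**Figure D1:**
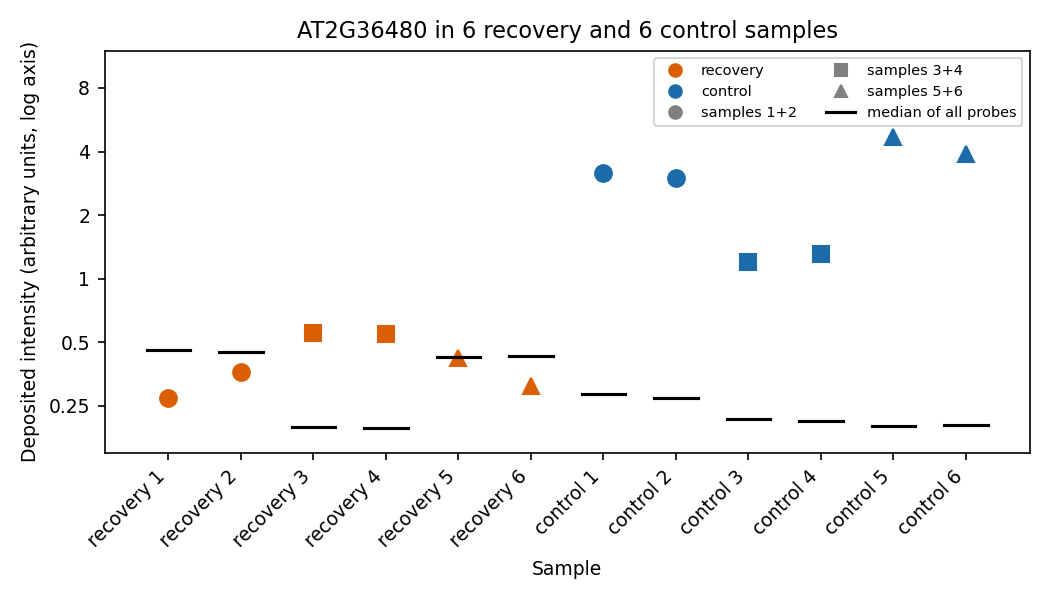
Deposited intensity of the AT2G36480 probe (arbitrary units, log axis) in each of 6 recovery samples, left, and 6 control samples, right, with marker shapes for the pairs of samples and a black bar at the median of all probes of that sample. Recovery values lie between 0.271 and 0.554 and control values between 1.19 and 4.67, and samples 3 and 4 of the 2 groups lie closest together.

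Set against the median of all probes in the same sample, the probe was an ordinary spot in most recovery samples and one of the brighter spots in control samples. In recovery samples 1, 2, 5 and 6 it stood at 0.590, 0.810, 0.990 and 0.722 times the sample median, and in recovery 3 and 4 at 2.80 and 2.81 times. In control samples it stood at 11.1 times the median in samples 1 and 2, at 5.49 and 6.20 times in samples 3 and 4, and at 23.4 and 19.2 times in samples 5 and 6. Thus 4 of the 6 recovery samples had the probe below the middle of the array, and no control sample did. The medians themselves differed, with 0.426 to 0.458 in recovery 1, 2, 5 and 6 and 0.197 and 0.196 in recovery 3 and 4, against no more than 0.284 in any control sample. The part of these medians in the ratios was not tested.

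The rank of the probe within a sample does not depend on how a sample was scaled. Among 3439 probes, with rank 1 the brightest, it stood at 2383, 2025, 785, 797, 1733 and 2150 in recovery samples 1 to 6. It stood at 146, 151, 406, 362, 82 and 99 in control samples 1 to 6. The best rank in recovery plants, 785, was lower on the array than the poorest in control plants, 406. By mean intensity over each group the probe ranked 1566 in recovery and 147 in control plants. In samples 3 and 4 the rank differed by 379 and 435 places between recovery and control, and in the other numbers by 1651 to 2237 places. Ranks compare spots and not transcript abundance, since probes differ in how strongly they bind.

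**Figure D2:**
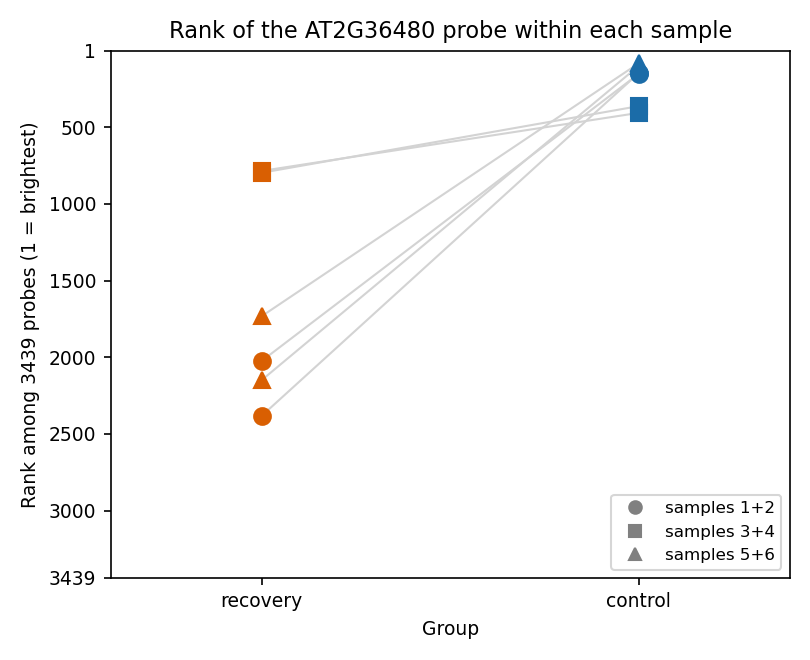
Rank of the AT2G36480 probe among 3439 probes (1 at the top is the brightest) in recovery samples, left, and control samples, right, with grey lines joining samples of the same replicate number and marker shapes for the pairs. Ranks span 785 to 2383 in recovery and 82 to 406 in control samples, and the lines of samples 3 and 4 are the flattest.

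For comparison with other genes the values were quantile-normalised and put on the log2 scale. On it AT2G36480 averaged -1.67 ± 0.90 in recovery and 1.37 ± 0.85 in control samples (SD, n = 6 each). The difference, recovery minus control, was -3.03, or 8.18-fold higher in control plants. The median difference of all 3438 features was -0.02, with quartiles at -0.44 and 0.43. Only 1 feature, the unnamed probe 4341 at -3.06, had a lower difference, and the unnamed probe 1566 came next at -2.69. Among the 10 genes with a probe of their own that were called lower in recovery plants (limma, adjusted p under 0.05), AT2G36480 stood first and AT-HF (AT4G26900), whose product is an enzyme of histidine synthesis, second at -1.93. The call that entered the choice of the gene was made for 104 of 3438 features (3.03%), 41 higher and 63 lower (1.83%) in recovery plants. A gap between groups like that of AT2G36480, every recovery value below every control value, was found in 94 features (2.73%).

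Those calls leaned on how samples entered the fit. On the deposited scale 79 features were called higher and 30 lower, and after median centring 14 higher and 51 lower. Leaving out 1 replicate number at a time left 22 to 64 calls. Once the pairs were averaged, which leaves 3 values a group, 0 features passed the limma test and the call of AT2G36480 was lost too (203 features at an unadjusted p under 0.05).

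The size of the difference depended on the pair of samples. By replicate number the deposited intensity was 11.6, 8.31, 2.15, 2.39, 11.1 and 12.6 times higher in control than in recovery samples 1 to 6. All 6 numbers had the lower value in recovery plants, which the choice of the gene favours. The normalised log2 differences of numbers 1 to 6 were -4.23, -3.68, -0.82, -0.99, -4.09 and -4.38. The pair 1+2 had a difference of -3.95, the pair 3+4 one of -0.90 and the pair 5+6 one of -4.24. Without samples 3 and 4 the difference was -4.10, or 17.1-fold higher in control plants, against 8.18-fold with them. AT2G36480 stood at place 4 of 3438 features from the lowest difference in the pair 1+2 and in the pair 5+6. In the pair 3+4 it stood at place 755. A low place is likewise favoured by the choice of the gene on these samples. For the pairs 1+2, 3+4 and 5+6 in turn, the ratios of mean deposited intensities, control over recovery, were 9.73, 2.27 and 11.7. The folds from the mean log2 differences of the normalised values, a different kind of average, were 15.5, 1.87 and 18.9. By number, the log2 differences of the deposited values were -3.54, -3.05, -1.11, -1.26, -3.47 and -3.65. After normalisation the difference was thus wider in numbers 1, 2, 5 and 6 and narrower in numbers 3 and 4. The part of the sample medians in this was not tested.

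**Figure D3:**
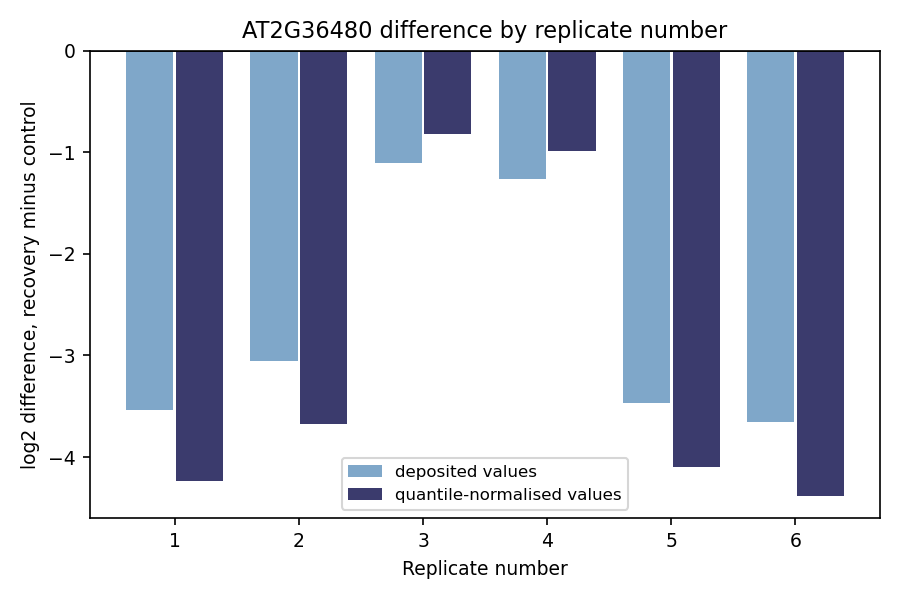
Log2 difference of AT2G36480, recovery minus control, for each of the 6 replicate numbers, on deposited values (light bars) and quantile-normalised values (dark bars). Numbers 3 and 4 show differences of -0.82 and -0.99 after normalisation, against -3.68 to -4.38 for the other 4 numbers.

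Samples of the same pair differed little for this gene. In recovery plants the 2 samples differed by 1.34, 1.01 and 1.37 times in the pairs 1+2, 3+4 and 5+6. In control plants they differed by 1.04, 1.10 and 1.20 times. The SD inside a pair, pooled over the 6 pairs of both groups, was 0.23 on the log2 scale, while the SD of the 3 pair means was 0.97 in recovery and 0.94 in control plants. The pairs, and not the samples within them, made up most of the spread of each group.

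The departure of each pair from the others was estimated in a limma fit with a mean for each pair of each group. Samples 3 and 4 were singled out after their values had been seen, and the gene was chosen on these same samples, so its departures are given as a description, with no p-value. The difference in samples 3 and 4 lay 3.19 above the mean of the other pairs, with a standard error of 0.29 that rests on the spread inside pairs. The difference in samples 1 and 2 lay at -1.38 and that in samples 5 and 6 at -1.81 relative to the mean of the other pairs, and these 3 values sum to 0 by construction. Recovery 3 and 4 lay 1.65 above the other recovery samples and control 3 and 4 lay 1.54 below the other control samples, each with a standard error of 0.21. Over all features, 962 of 3438 (28.0%) passed an adjusted p under 0.05 for a departure of samples 3 and 4, 465 above and 497 below 0, and AT2G36480 stood at place 105 from the highest value. A departure of samples 3 and 4 was thus common on the array. The like contrast for samples 1 and 2 called 5.73% of features and that for samples 5 and 6 called 12.5%. AT2G36480 was among the called features in all 3 contrasts, which rest on the same pair means and are not separate results. Since the gene was chosen on these samples, its calls add nothing to the values themselves. If the samples of a pair are repeat readings of 1 RNA, these calls and standard errors count reading error only.

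**Figure D4:**
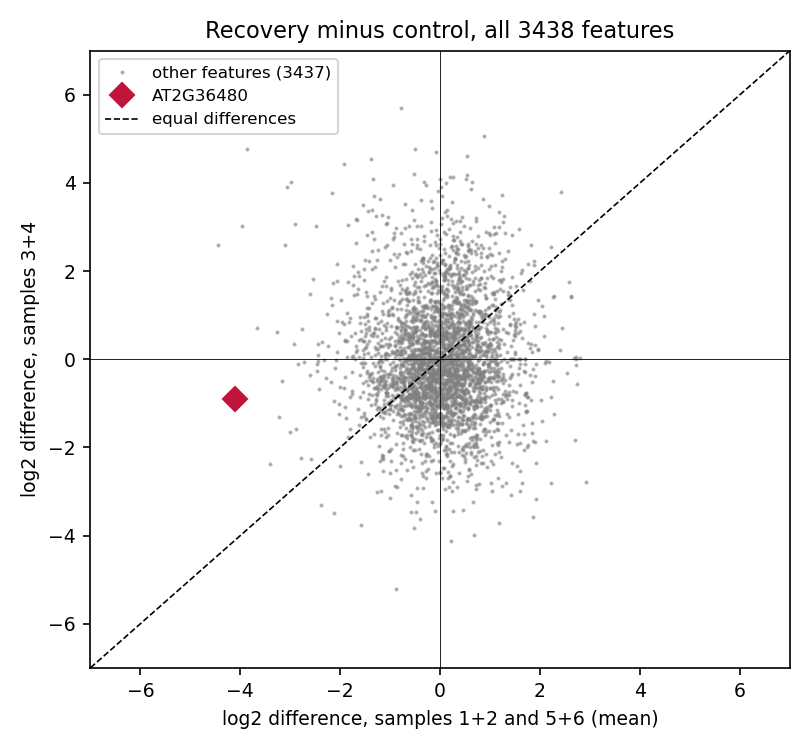
Log2 difference, recovery minus control, in samples 3 and 4 (vertical axis) against the mean difference in samples 1 and 2 and samples 5 and 6 (horizontal axis) for 3438 features, with a dashed line where both are equal. AT2G36480 lies at -4.10 on the horizontal and -0.90 on the vertical axis, at the far left and above the dashed line.

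The genes whose pattern was most like that of AT2G36480 were found by Pearson correlation over the log2 values of the 12 samples, among 3205 other features with no more than 6 values at the floor. The 12 values fall into 2 groups of 3 pairs, so such a correlation mostly restates the group difference and the pairs, and it is a description. Closest were the unnamed probes 2563 (r = 0.973) and 1144 (r = 0.967), followed by AT4G03150 (r = 0.949), AT-HF (r = 0.942) and AT1G79480 (r = 0.929). The next genes with their own probe were AT3G09050 (r = 0.902) and AT2G46630 (r = 0.887). Without samples 3 and 4, over 8 samples, the 5 named genes had r of 0.949 to 0.975, and on the deposited scale over 12 samples r of 0.749 to 0.917. In all, 16 features had an r of 0.9 or more, and the median over all features was -0.02.

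These 5 genes shared the lower level in recovery plants but not the same course over the pairs. AT4G03150 had log2 differences of -2.03, -0.11 and -2.91 in the pairs 1+2, 3+4 and 5+6. AT-HF had differences of -3.11, -0.10 and -2.59, and AT1G79480 of -2.45, 0.11 and -2.45. In these genes the difference was nearly absent in samples 3 and 4, where that of AT2G36480 was -0.90. AT3G09050, with -0.82, -0.84 and -1.35, and AT2G46630, with -1.56, -1.59 and -2.06, differed by similar amounts in all 3 pairs. AT-HF, AT3G09050 and AT2G46630 were among the called features, and AT4G03150 and AT1G79480, with overall differences of -1.68 and -1.60, were not.

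**Figure D5:**
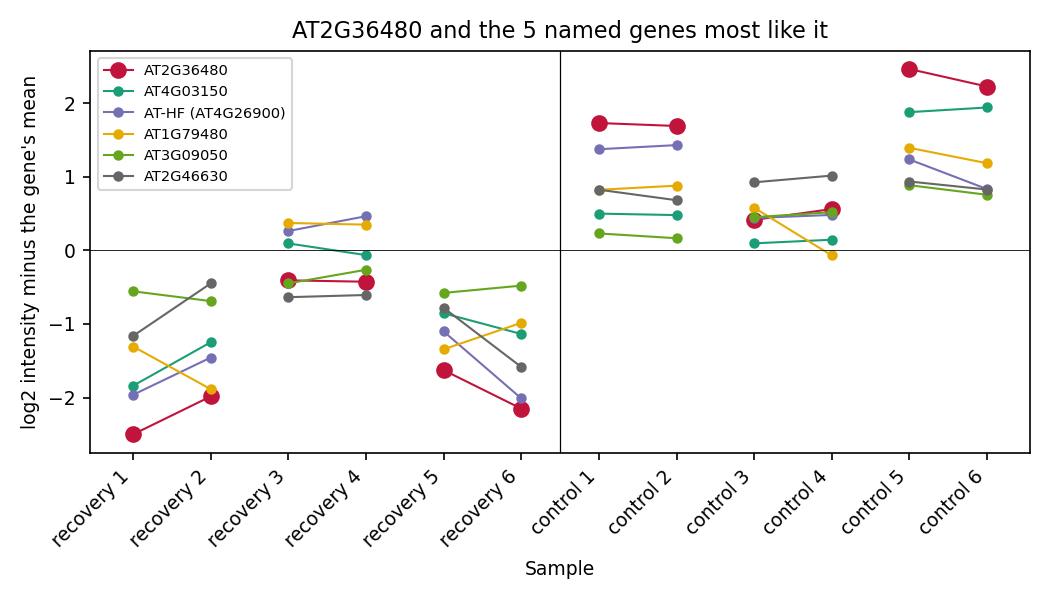
Log2 intensity of AT2G36480 and of the 5 named genes most like it, each minus its own mean over 12 samples, in recovery samples, left, and control samples, right, with lines joining the samples of a pair. AT2G36480 spans -2.65 to 2.32 before centring, the widest range of the 6 genes, and within each group its samples 3 and 4 lie nearest to its own mean.

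A second likeness was taken over the deviations of each sample from its group mean, which removes the difference between recovery and control. By it the closest genes with their own probe were AT4G03150 again (r = 0.918), CYN (AT3G23490, r = 0.916), the gene of cyanase, which breaks down cyanate, AT5G19900 (r = 0.915), PSAN (AT5G64040, r = 0.903), a subunit of photosystem I, and AT3G53580 (r = 0.894). The unnamed probes 804 (r = 0.946) and 1050 (r = 0.936) were closer still. Apart from AT4G03150, at -1.68, these genes had overall differences between -0.15 and 0.07, so they shared the course over the pairs without the fall. PSAN, for example, had differences of -0.55, 1.03 and -0.40 in the 3 pairs. Without samples 3 and 4 the likeness held at 0.908 for AT4G03150 and dropped to 0.626 for PSAN, 0.596 for AT5G19900, 0.254 for AT3G53580 and 0.069 for CYN (n = 8 samples). On the deposited scale over 12 samples it was 0.867 for AT4G03150, 0.863 for AT5G19900, 0.781 for PSAN, 0.650 for CYN and 0.572 for AT3G53580. AT3G53580 had 4 of its 12 values at the floor. AT4G03150 was the 1 gene named by both likenesses.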

How the data were processed

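The deposited table holds 1 linear intensity per probe and sample. The sources used here state no scanner, background correction or normalisation by the authors. The scaling behind the values is unknown, and arrays have no read depth. The brightest probe of each sample read 100 after rounding, except in recovery 4, where it read 90.5. Ratios of deposited values between samples depend on that unknown scaling. The group and replicate number come from the titles. AT2G36480, the gene lists and the tests were chosen with earlier results of these data known. Probes were named through the platform annotation, 690 of 692 single genes being found in the reference gene table (TAIR10.1). The series names no build, so no position is given. Intensities were quantile-normalised (limma 3.58.1, R 4.3.3), set to at least 0.0298, the 5th percentile of positive values (-5.07 on the log2 scale), and put on log2, and probes of 1 gene were averaged, leaving 3438 features.

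Groups were compared with limma (lmFit, eBayes, two-sided, Benjamini-Hochberg over 3438 features, threshold 0.05) over 12 samples with no covariate. Pair departures were fitted with a mean for each of 6 pairs. As a check of pairing, each recovery sample's deviations from its group mean were set against those of the control sample with its number, giving correlations of 0.110 to 0.462, against -0.229 to 0.008 for control samples outside its pair. All 6 being over 0.1, the replicate block was treated as a paired fit, on this evidence alone. The control sample with the other number of the same pair was not compared. The check therefore cannot tell a match by replicate number from a match by pair. Named genes were AT2G36480, the next called named fall, the 5 single-gene probes most like it by each likeness, and up to 2 unnamed probes beside each. Of 34 listed genes of mRNA 3′ end formation, 0 had a probe of their own, so that list gave no values. AT2G36480 is not on that list, and no role in that process is claimed for it here. The 2 loci AT2G36470 and DML1, taken as neighbours of AT2G36480 by locus number and not by position, likewise had 0 probes of their own. Probe and gene sequences were not used here, and binding of the probe to other transcripts was not tested.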

Additional observations from a re-analysis of the deposited data

Results flagged for a closer look

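The difference of AT2G36480 between recovery and control plants was not the same in all pairs of samples. In samples 3 and 4 it lay 3.19 above the mean of the other pairs on the log2 scale (-0.90 against -4.10). It is listed because it passed the limma contrast of pairs, whose noise is only the spread inside pairs that may be repeat readings of 1 RNA. Since both the gene and the pair were picked from these same values, no p-value is given, and the call adds nothing to the values themselves. The cause was not tested. A search of 20 groups of 6 samples, over AT2G36480 and the genes named beside it, listed 0 single samples by the gap criterion of Dixon. The near-equal partner of each sample hides such a gap, so this says nothing about whole pairs.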

How the results depend on the processing

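The log2 difference of AT2G36480 had the sign for which the gene was chosen in all 17 alternatives. In 6 of them (both other floors, the filter, the replicate block, averaged pairs and the random block) the value is -3.03 by construction. In the others it ran from -4.10 (without samples 3 and 4) to -2.66 (pseudocount of 0.1 in place of the floor), and from -3.47 to -2.76 when 1 replicate number was left out. On the deposited scale it was -2.68, with the median feature at 0.43, and relative to that median it was -3.11. The departure of samples 3 and 4 ranged from 2.25 to 3.33 over 14 alternatives. The count of features called between recovery and control, 104, was 65 with median centring, 60 with cyclic loess, 69 among features above the floor in at least 6 samples, 3 with the pair as a random block, 0 with averaged pairs, 416 without samples 3 and 4, and 22 to 64 without 1 replicate number. With the replicate number as a block it was 106, of which 58 were among the 104, and that block left the AT2G36480 values at -3.03 and 3.19 and 894 features with a departure of samples 3 and 4. That count, 962, was 1547 on the deposited scale (310 above and 1237 below 0), 1226 with median centring (737 above and 489 below) and 611 to 975 without 1 replicate number. The causes of these shifts were not tested. No departure could be fitted with averaged pairs or without samples 3 and 4. Likenesses on the deposited scale and without samples 3 and 4 were added after the data were seen. With 3 pairs a group and no spot background analysed here, the number of arrays limits the precision.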
